A study of Homo sapiens with 6 samples.

Results

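The HOX cluster genes were taken as all rows of the deposited table whose symbol is HOXA, HOXB, HOXC or HOXD followed by a number, which gave 39 genes of 60612. HOXA held 11 of them, HOXB 10, and HOXC and HOXD 9 each. They were read in the human glioma line U251, an established cell line given as wild type in the labels, in 3 libraries treated with 6-shogaol, a pungent ketone of dried ginger, and in 3 control libraries without it, all taken at 24 h. The labels give the dose as 60 and write its unit as "μm", read here as micromolar. RNA sequencing of bulk cells was used, so a lower level in every cell and fewer cells with the transcript cannot be told apart. The labels do not say whether replicates are cultures of their own. All p-values therefore rest on the spread among these 6 libraries, and that spread may be technical.

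HOX genes encode homeodomain transcription factors that give cells their position along the body axis. In each cluster the genes lie in the order in which they are used, the low-numbered paralog groups in anterior and the high-numbered ones in posterior regions, and Polycomb proteins keep the unused stretches silent while trithorax proteins keep the used ones active. The normal adult forebrain uses few of them, and activation of HOX genes, above all of the HOXA cluster, is well known in glioblastoma. HOX proteins bind DNA together with TALE cofactors of the PBX and MEIS families, and retinoic acid is a classical inducer of the anterior genes.

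Glial and stem-like markers were in keeping with the label only in part. Means of VIM, NES, SOX2, SOX9 and CD44 ran from 20.1 to 1126 FPKM (fragments per kilobase of transcript, scaled to the library's total) in controls, whereas GFAP, the astrocyte filament gene, averaged 0.664 ± 0.0421 FPKM with 6-shogaol and 2.03 ± 0.419 FPKM in controls (SD, n = 3 each) and fell (log2 fold change -1.62, edgeR adjusted p = 0.00655). NES, the stem-cell filament gene, fell too (edgeR adjusted p = 0.0484). CD44 lay higher with 6-shogaol without overlap of the groups but was not called (log2 fold change 0.25, edgeR adjusted p = 0.120). S100B, OLIG2 and AQP4 averaged below 1 FPKM in both groups. Of the leukocyte markers, PTPRC and CD3E stood at or near 0 and CD14 averaged 0.589 FPKM with 6-shogaol and 0.463 FPKM in controls. CD68, a lysosomal gene of macrophages, averaged 9.02 ± 2.49 FPKM with 6-shogaol and 5.37 ± 0.422 FPKM in controls, without overlap of the groups, and was called by DESeq2 but not by edgeR (log2 fold change 0.73, edgeR adjusted p = 0.117). Of the endothelial markers, PECAM1 and VWF stood at or near 0, while CDH5 had 40, 27 and 36 counts with 6-shogaol and 129, 137 and 133 in controls. The epithelial keratins KRT8 and KRT18 averaged 17.1 and 10.6 FPKM with 6-shogaol and 21.0 and 13.6 FPKM in controls. EPCAM and CDH1, also epithelial, averaged only 0.106 and 0.0429 FPKM with 6-shogaol and 0.0360 and 0.0199 FPKM in controls. The neuronal marker TUBB3 averaged 48.6 FPKM with 6-shogaol and 31.6 FPKM in controls, with overlapping groups. SNAP25, SYP and RBFOX3, also neuronal, averaged below 1 FPKM in both groups. The mesenchymal markers THY1 and COL1A1 averaged 24.3 and 5.27 FPKM with 6-shogaol and 23.6 and 8.25 FPKM in controls. PDGFRB and DCN, also mesenchymal, averaged 1.21 and 0.00784 FPKM with 6-shogaol and 1.09 and 0.0167 FPKM in controls. Of 28 markers of glial and other cells 23 were tested by edgeR, 4 fell (GFAP, NES, COL1A1 and CDH5) and 0 rose, where 3.38% of all genes tested were called, 1.71% lower and 1.67% higher. DESeq2 called 1 higher (CD68) and 6 lower (those 4, SOX2 and SOX9), where it called 9.68% of all genes. The sum of the list was 1323 to 1939 FPKM with 6-shogaol and 1515 to 1540 FPKM in controls, most of it VIM. The part of this in the HOX results was not tested.

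Libraries held 43516840 to 60018999 counts. Replicate 1 of the 6-shogaol group stood apart from the other treated libraries on the first principal components of log2 CPM, at 11.5 on PC1 and -61.8 on PC2, against 46 and 1.1 for replicate 2 and 53.3 and 33.9 for replicate 3, with controls between -44.8 and -29.4 on PC1. Without it 1012 genes were called in all, against 651 with all libraries, and HOXB13 was called beside HOXB9. Without any other single library the calls numbered 98 to 174. Low counts piled up at multiples of 4: between 1336 and 1465 genes of a library had a count of 4, against 539 to 606 with 3 and 297 to 342 with 5. No counting interval is given for these values.

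Promoter sequences help to place 3 transcripts followed below. They are the promoters of HOXA7, HOXA13 and the long noncoding RNA HOTTIP. HOXA7 had the lowest fold change among HOXA genes. HOXA13 and HOTTIP are neighbours on opposite strands, transcribed away from each other by their RefSeq starts. Both lay higher in all treated libraries, HOTTIP on few counts. Each promoter window runs 5′ to 3′ on the gene's strand from 250 bases before to 50 bases after the start (RefSeq, GRCh38.p14). The HOXA7 window is chr7:27156626-27156925 on the minus strand, and its capitals mark a CACGTG motif (an E-box). The HOXA13 window is chr7:27200042-27200341 on the minus strand and the HOTTIP window chr7:27200171-27200470 on the plus strand, and their capitals mark the same 171 bases read from opposite strands.
HOXA7: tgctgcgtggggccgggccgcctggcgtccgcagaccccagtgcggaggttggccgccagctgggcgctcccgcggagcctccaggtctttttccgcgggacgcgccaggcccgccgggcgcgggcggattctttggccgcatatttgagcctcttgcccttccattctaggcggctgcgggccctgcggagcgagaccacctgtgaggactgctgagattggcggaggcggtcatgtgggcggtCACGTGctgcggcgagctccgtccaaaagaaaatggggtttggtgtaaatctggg
HOXA13: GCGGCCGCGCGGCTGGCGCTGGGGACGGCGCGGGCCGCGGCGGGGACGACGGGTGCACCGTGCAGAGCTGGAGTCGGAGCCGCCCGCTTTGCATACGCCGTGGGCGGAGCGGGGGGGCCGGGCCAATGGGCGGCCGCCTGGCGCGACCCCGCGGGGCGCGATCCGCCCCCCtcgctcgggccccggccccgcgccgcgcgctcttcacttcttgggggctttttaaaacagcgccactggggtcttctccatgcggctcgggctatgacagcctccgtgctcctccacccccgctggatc
HOTTIP: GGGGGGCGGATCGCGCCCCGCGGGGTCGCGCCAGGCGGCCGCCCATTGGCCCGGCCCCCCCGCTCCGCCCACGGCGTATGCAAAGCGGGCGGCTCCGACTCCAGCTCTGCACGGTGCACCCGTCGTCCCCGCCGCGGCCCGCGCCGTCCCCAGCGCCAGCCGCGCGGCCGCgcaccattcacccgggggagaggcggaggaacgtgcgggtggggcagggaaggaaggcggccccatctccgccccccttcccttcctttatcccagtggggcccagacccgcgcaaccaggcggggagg

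The RefSeq starts of HOXA13 and HOTTIP lie 330 bases apart. In the deposited coordinates HOTTIP starts at 27198575 and its span overlaps that of HOXA13 by 1517 bases. The HOTTIP window above thus lies downstream of the start of the row that was counted. CG dinucleotides numbered 31 in the HOXA7 window, 44 in that of HOXA13 and 41 in that of HOTTIP, against a median of 14 over 35116 promoters of the same length. The promoter set held 27 promoters of 20 HOX cluster genes, several of them alternative starts of one gene, with a median of 22 CG dinucleotides. It held no promoter of HOXB9 or HOXB13, and all HOX genes with a match to the motifs below were HOXA or HOXD genes. The HOX shares below therefore do not describe HOXB9 or all clusters. CACGTG, which reads the same on both strands, stood in 9 of these 27 (33.3%) and in 7.26% of all promoters. TATAAA was found on either strand in 5 of the 27 (18.5%) and in 11.5% of all. TGACNNNGC, the core of the antioxidant response element, stood in 3 of the 27 (11.1%) and in 13.3% of all, and GAANNTTC, the core of the heat shock element, in 1 (3.70%) and in 6.77% of all. The motifs were searched apart from each other and can overlap, and a match is a description of letters, not of binding.

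U251 cells carried transcripts of most HOX genes, with sharp steps between neighbours. In controls 22 of the 39 genes averaged at least 1 FPKM and 6 at least 10 FPKM, and with 6-shogaol 23 averaged at least 1 FPKM. Summed over all 39, the level was 169, 179 and 163 FPKM in 6-shogaol replicates 1, 2 and 3, against 189, 181 and 175 FPKM in control replicates 1, 2 and 3. The ranges overlapped, and the mean sum with 6-shogaol was 0.938 of that in controls. Without HOXB3 alone the ratio was 0.983. HOXD supplied 43.0% of the sum with 6-shogaol and 40.2% in controls, HOXB 26.5% with 6-shogaol and 29.3% in controls, HOXC 21.9% with 6-shogaol and 21.99% in controls, and HOXA 8.59% with 6-shogaol and 8.49% in controls. The posterior groups 9 to 13 supplied 58.3% with 6-shogaol and 52.3% in controls. These shares also move with the total. The HOXD sum averaged 73.3 FPKM with 6-shogaol and 73.2 FPKM in controls, and the HOXB sum 45.2 and 53.3 FPKM. The sum of groups 9 to 13 averaged 99.5 FPKM with 6-shogaol and 95.0 FPKM in controls. Within it HOXB9 alone averaged 10.3 FPKM with 6-shogaol and 5.23 FPKM in controls. Of the 12 tested members of these groups 4 had log2 fold changes above 0 and 8 below, with a median of -0.12.

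**Figure D1:**
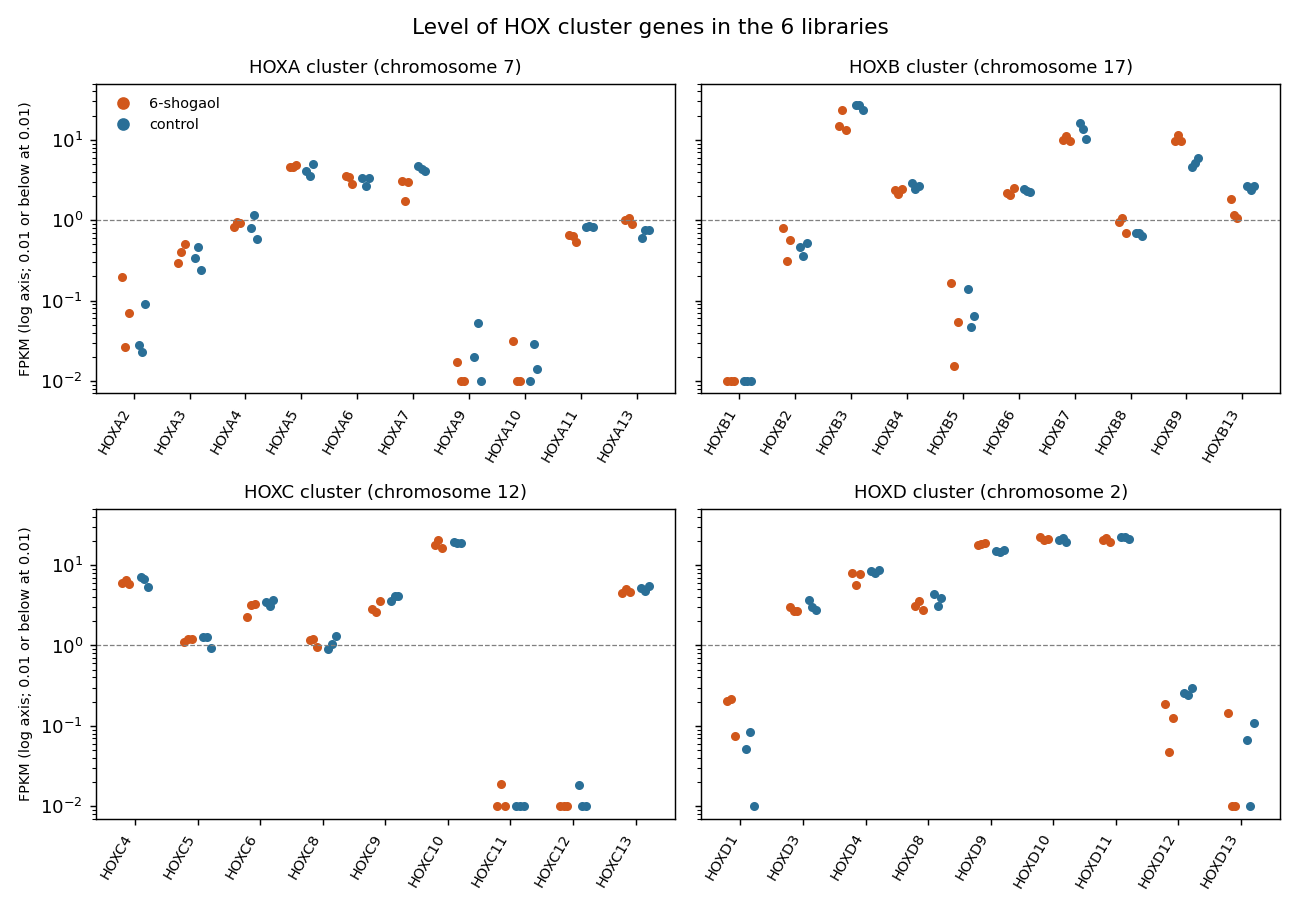
Level in FPKM (log axis, values of 0.01 or below drawn at 0.01) of 38 HOX cluster genes, by cluster and paralog number, with 1 point per library (6-shogaol left, control right); the dashed line marks 1 FPKM. Strongly transcribed genes stand beside genes near 0, as with HOXC10 at 18.9 FPKM and HOXC11 at or near 0, and the pattern along each cluster was alike in both groups.

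HOXB3 and the middle of HOXD led the controls. HOXB3, an anterior gene used in the hindbrain, averaged 25.9 ± 2.02 FPKM there. HOXD11 followed with 21.8 ± 0.622, HOXD10 with 20.6 ± 1.05, HOXC10 with 18.9 ± 0.467, HOXD9 with 15.05 ± 0.367 and HOXB7 with 13.5 ± 3.09 FPKM (SD, n = 3). The libraries of neighbours in this order overlapped for HOXD11 and HOXD10 and for HOXD9 and HOXB7, and did not for the other 3 pairs. With 6-shogaol HOXD10 stood first at 21.3 ± 0.858 FPKM, and HOXB3 averaged 17.2 ± 5.30 FPKM.

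Genes near silence lay between transcribed ones. In HOXA, the genes HOXA9 and HOXA10, both known from leukaemia and glioma, stayed at or below 0.0523 and 0.0310 FPKM in every library of both groups, while HOXA7 on one side and HOXA11 and HOXA13 on the other were clearly present. In HOXC, HOXC11 had 4 counts in 1 treated library and HOXC12 had 4 in 1 control library, with 0 in the others, between HOXC10 and HOXC13, a gene of hair and nail formation, which averaged 4.74 ± 0.262 FPKM with 6-shogaol and 5.14 ± 0.405 FPKM in controls. In HOXB, HOXB1 had 0 counts in all 6 libraries, where 3 counts would be 0.05 to 0.0689 CPM (counts scaled to the library's total). As low counts piled up at multiples of 4, the true limit of detection may be higher. HOXB5 averaged 0.0790 ± 0.0792 FPKM with 6-shogaol and 0.0834 ± 0.0477 FPKM in controls between HOXB4 and HOXB6. In HOXD the outer genes HOXD1, HOXD12 and HOXD13 averaged below 0.3 FPKM in both groups, against 2.78 to 21.8 FPKM for the 6 genes between them.

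Between 6-shogaol and control 1 HOX gene passed the test. Of the 39 genes 33 passed the filter on low counts and entered the test. The other 6, HOXA9, HOXA10, HOXB1, HOXB5, HOXC11 and HOXC12, did not. HOXB9 alone was called, higher with 6-shogaol (edgeR's quasi-likelihood test with Benjamini-Hochberg adjustment over 19279 genes, threshold 0.05). Over all genes tested 3.38% were called, 1.67% higher and 1.71% lower, so 1 call among 33 is close to that background. The median log2 fold change of the 33 was -0.07, with 14 above 0 and 19 below, against a median of -0.0000532 over all genes tested. An unadjusted p under 0.05 was reached by 3 higher and 5 lower genes, 24.2% of the 33 against 20.4% of all genes tested. DESeq2 called 4 of the 33, HOXA7, HOXB3, HOXB9 and HOXB13, where it called 9.68% of all genes.

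**Figure D2:**
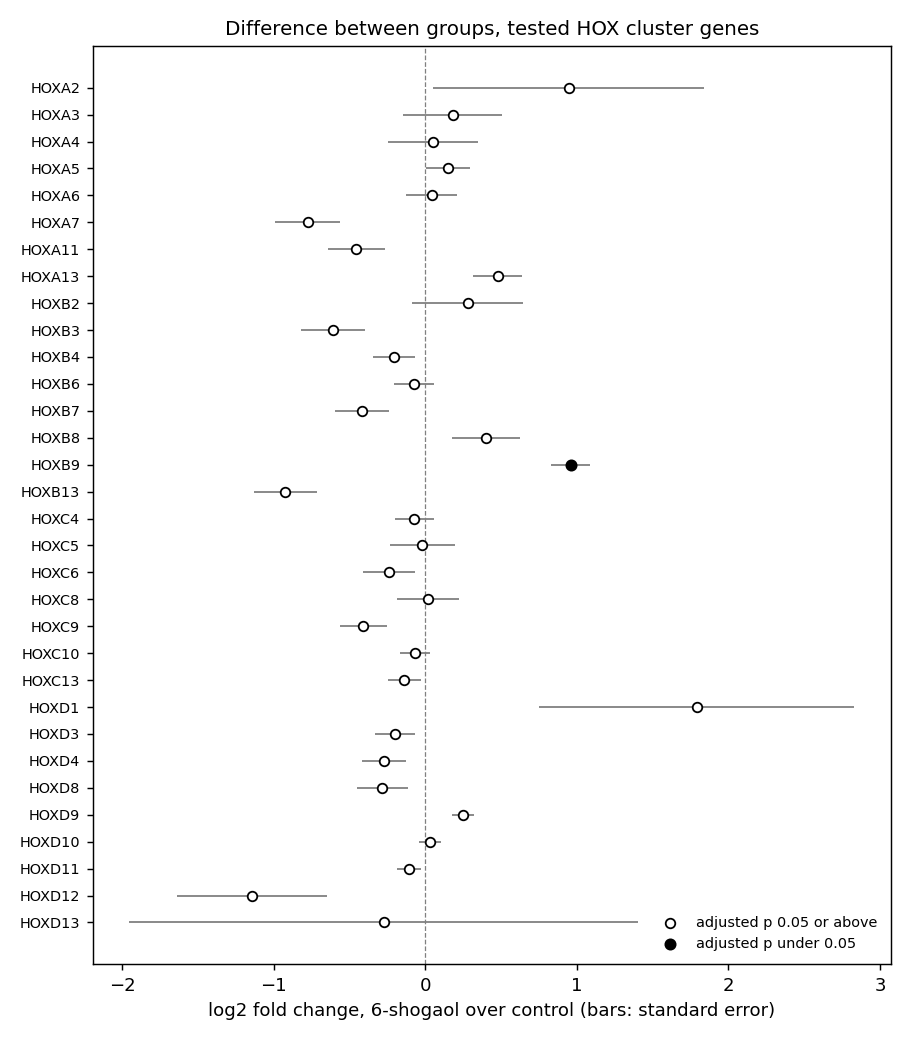
Log2 fold change, 6-shogaol over control, of 32 tested HOX cluster genes, with its standard error from the edgeR fit over all genes. HOXB9 at 0.96 is the filled point with an adjusted p under 0.05; HOXD1, HOXA2 and HOXD13 have the widest bars.

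HOXB9, a posterior gene of paralog group 9 (ENSG00000170689, chromosome 17, 48621156 to 48626358 on the minus strand, in deposited coordinates on GRCh38), had 28.7, 35.8 and 29.5 CPM in 6-shogaol replicates 1, 2 and 3 and 14.3, 16.1 and 18.0 CPM in control replicates 1, 2 and 3. Every treated library lay above every control library. It rose 1.94-fold (log2 fold change 0.96, SE 0.13, edgeR adjusted p = 0.0166). The direction was the same under all 16 alternatives, with log2 fold changes from 0.85 to 1.05. The call held without control replicate 3 (adjusted p = 0.0428) and without 6-shogaol replicate 1 (0.0242). It was lost without control replicate 1 (0.0660), control replicate 2 (0.0846), 6-shogaol replicate 2 (0.0532) or 6-shogaol replicate 3 (0.0535), and with the replicate number as a block (0.0900). In GENCODE 29 it shares no exon bases with a neighbour that has counts. There 0% of its 50-base stretches occur in a transcript of a gene that does not overlap its exons. In the deposited coordinates, however, it lies wholly within the span of HOXB7 on the same strand. Whether reads of the HOXB9 and HOXB7 rows were fully told apart is not known.

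The other members of paralog group 9 were not called. HOXD9 had 37.8, 40.4 and 41.1 CPM with 6-shogaol and 33.4, 33.0 and 34.1 CPM in controls. Its groups did not overlap, but the difference was small and did not pass (log2 fold change 0.25, SE 0.07, edgeR adjusted p = 0.119), except in limma on log2(FPKM + 1), where it had an adjusted p of 0.0493. HOXC9, which specifies thoracic motor neurons, had 5.54, 5.26 and 6.96 CPM with 6-shogaol and 7.20, 8.30 and 8.12 CPM in controls. All treated libraries lay below the controls, and it did not pass (log2 fold change -0.41, SE 0.15, edgeR adjusted p = 0.196). HOXA9 had 4, 0 and 0 counts with 6-shogaol and 4, 12 and 0 counts in controls. The summed level of the group was 31.4 ± 1.18 FPKM with 6-shogaol and 24.3 ± 1.15 FPKM in controls (SD, n = 3 each).

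HOXB13, the outermost HOXB gene, lies 98.4 kb from HOXB9 (chromosome 17, 48724763 to 48728750) and had the lowest fold change of its cluster. It had 6.41, 4.27 and 3.88 CPM with 6-shogaol and 9.63, 8.57 and 9.48 CPM in controls, with no overlap of the groups. The log2 fold change was -0.93 (SE 0.21, edgeR adjusted p = 0.0630), short of the threshold. It passed without 6-shogaol replicate 1 (adjusted p = 0.0190) and in DESeq2 (0.00168). PRAC1 and PRAC2, the genes next to it, had 0 counts in all libraries but 1, control replicate 3, where PRAC2 had 4.

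HOXB3 (chromosome 17, 48548870 to 48590272) had 128, 206 and 117 CPM with 6-shogaol and 242, 240.5 and 207 CPM in controls. Replicate 2 of the treated group stood just below the lowest control, and the other treated libraries far below. The difference did not pass (log2 fold change -0.61, SE 0.21, edgeR adjusted p = 0.163), but passed without 6-shogaol replicate 2 (log2 fold change -0.91, adjusted p = 0.0311) and in DESeq2 (0.0275). HOXB3 spans HOXB4, a gene studied in blood stem cells, on the same strand, and 7.9% of its exon bases are shared with HOXB4 or HOXB6 in GENCODE 29. HOXB4 itself had a log2 fold change of -0.21 and HOXB6 of -0.07.

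HOXB7 had 17.3, 20.1 and 17.2 CPM with 6-shogaol and 29.8, 24.96 and 18.4 CPM in controls. Control replicate 3 lay below the highest treated library, and the controls spread widely. The log2 fold change was -0.42 (SE 0.18, edgeR adjusted p = 0.247). HOXB9 lies wholly within the deposited span of HOXB7, which covers its 5203 bases on the same strand. HOXB8 had a log2 fold change of 0.40 with overlapping groups (edgeR adjusted p = 0.377), and HOXB2 had 0.28.

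**Figure D3:**
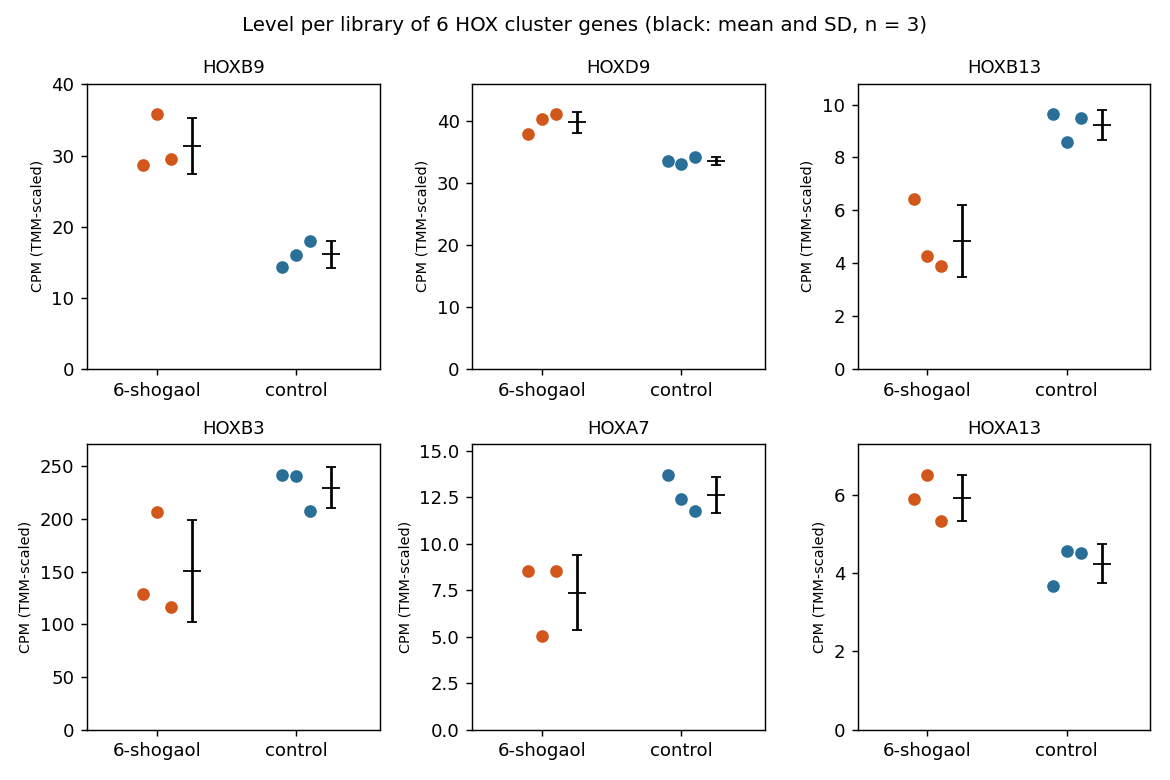
TMM-scaled CPM of HOXB9, HOXD9, HOXB13, HOXB3, HOXA7 and HOXA13 in each library (6-shogaol left, control right), with mean and SD in black (n = 3). The groups do not overlap in any of the 6 panels, but only HOXB9, at a mean of 31.3 CPM with 6-shogaol and 16.1 CPM in controls, was called.

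In the HOXA cluster no gene was called. HOXA7 (chromosome 7, 27153716 to 27156675), a gene of the trunk, had 8.53, 5.02 and 8.52 CPM with 6-shogaol and 13.7, 12.4 and 11.8 CPM in controls. All treated libraries lay below all controls, and the log2 fold change was -0.78 with an SE of 0.21 (edgeR adjusted p = 0.103, and 0.0105 in DESeq2). GENCODE 29 places 62.5% of its exon bases opposite HOXA-AS3, although in the deposited coordinates HOXA-AS3 lies 1012 bases away. HOXA-AS3 had 65, 232 and 129 counts with 6-shogaol and 153, 217 and 296 in controls. HOXA5, a regulator of lung development, had 9.24, 9.47 and 9.76 CPM with 6-shogaol and 8.36, 7.27 and 10.1 CPM in controls, and HOXA6 had 5.33, 5.26 and 4.23 CPM with 6-shogaol and 5.15, 4.17 and 5.07 CPM in controls. Both overlapped between groups, with log2 fold changes of 0.15 and 0.04. HOXA2, a gene of the hindbrain and branchial arches, had 31, 4 and 9 counts with 6-shogaol and 5, 4 and 16 in controls, so that its log2 fold change of 0.94 (SE 0.90) rested on 1 treated library. HOXA3 and HOXA4 had log2 fold changes of 0.18 and 0.05, and both were below 0 in some fits without 1 library.

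At the posterior end of HOXA, 2 neighbours lay higher in every treated library than in any control without passing the test. They were chosen after their values were seen. HOXA13, a gene of the distal limb and the urogenital tract, had 5.88, 6.50 and 5.33 CPM with 6-shogaol and 3.66, 4.55 and 4.50 CPM in controls (log2 fold change 0.48, SE 0.16, edgeR adjusted p = 0.157). HOTTIP, the noncoding RNA that starts beside it and is known to recruit WDR5 and MLL complexes to posterior HOXA genes, had 21, 12 and 16 counts with 6-shogaol and 4, 10 and 4 in controls (log2 fold change 1.61, SE 0.65, edgeR adjusted p = 0.221). The HOTTIP counts were few, and the gap between 12 and 10 is smaller than the steps of 4 at which low counts piled up. The deposited spans of HOXA13 and HOTTIP overlap by 1517 bases on opposite strands. The strand setting of the counting was not given in the sources used here, so reads of the pair cannot be fully told apart. HOXA11, needed in the uterus and the forearm, had 2.04, 2.03 and 1.68 CPM with 6-shogaol and 2.61, 2.69 and 2.60 CPM in controls (log2 fold change -0.46, edgeR adjusted p = 0.233), and its antisense RNA HOXA11-AS, which overlaps it by 726 bases, had a value of 0.58 with overlapping groups.

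No HOXC gene was called, and 6 of the 7 tested members had log2 fold changes between -0.25 and 0.05, HOXC9 being the exception. HOXC10, used in lumbar motor neurons, had 48.9, 58.0 and 46.0 CPM with 6-shogaol and 55.2, 52.8 and 52.3 CPM in controls (log2 fold change -0.07, SE 0.10). HOXC4, which activates the antibody-switching enzyme gene in B cells, had 19.0, 21.7 and 19.0 CPM with 6-shogaol and 23.2, 22.02 and 17.6 CPM in controls (log2 fold change -0.07, SE 0.13). HOXC13 had 12.3, 14.2 and 12.9 CPM with 6-shogaol and 14.6, 13.3 and 15.4 CPM in controls (log2 fold change -0.14, SE 0.11), and HOXC6, a gene of the brachial region, had 9.01, 13.1 and 13.5 CPM with 6-shogaol and 14.2, 12.97 and 14.9 CPM in controls (log2 fold change -0.24, SE 0.17). All 4 overlapped between groups. HOXC5 and HOXC8 had values of -0.02 and 0.02. HOXC4 shares 17.8% of its exon bases with HOXC6, and HOXC5 shares 33.9% with a transcript named only by its clone, so reads of this stretch could be divided in more than one way.

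In HOXD no gene was called. HOXD10, which shapes lumbar motor neurons and the limb, had 63.4, 60.7 and 62.5 CPM with 6-shogaol and 61.0, 64.4 and 57.4 CPM in controls (log2 fold change 0.03, SE 0.07). HOXD11, a gene of the forearm, had 50.2, 54.8 and 47.8 CPM with 6-shogaol and 55.8, 56.2 and 52.6 CPM in controls (log2 fold change -0.11, SE 0.08). Both overlapped between groups, and the 2 genes share exon bases with each other (16.8% of HOXD10 and 21.4% of HOXD11). HOXD3, HOXD4 and HOXD8 had values from -0.28 to -0.20. HOXD4, at 10.4, 7.74 and 10.3 CPM with 6-shogaol and 11.6, 10.95 and 11.8 CPM in controls, did not overlap between groups (edgeR adjusted p = 0.345). In the deposited coordinates HOXD4 lies wholly within the span of HOXD3 on the same strand.

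HOXD1 and HOXD12 had the largest absolute log2 fold changes of all tested members, on few counts. HOXD1 had 25, 25 and 8 counts with 6-shogaol and 7, 11 and 0 in controls (log2 fold change 1.79, SE 1.04, edgeR adjusted p = 0.397). HOXD12 had 32, 8 and 17 counts with 6-shogaol and 42, 45 and 54 in controls (log2 fold change -1.14, SE 0.49, edgeR adjusted p = 0.253), without overlap. HOXD13 had counts in 1 treated library (23) and in 2 controls (10 and 19), and its value changed sign with the library left out.

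Counted over all 33 tested members, the groups did not overlap for 10, with 3 higher (HOXA13, HOXB9 and HOXD9) and 7 lower (HOXA7, HOXA11, HOXB3, HOXB13, HOXC9, HOXD4 and HOXD12). Over all genes tested the groups did not overlap for 27.9%, 14.0% higher and 13.9% lower. Members of 1 paralog group differed in sign in groups 3 to 6, 8 to 10 and 13. In groups 3 to 6 and 10 this rested on values that changed sign with a library left out. They were those of HOXA3, HOXA4, HOXC5, HOXA6, HOXC10 and HOXD10. In group 13 HOXA13 stood at 0.48, HOXB13 at -0.93 and HOXC13 at -0.14. Both members of group 7 lay below 0, as did both tested members of group 11. Both members of group 2 lay above 0, but below it without 6-shogaol replicate 1.

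None of the HOX antisense RNAs and other small genes of the clusters was called. The 26 rows found were antisense and other noncoding RNAs, microRNA precursors and the protein-coding PRAC1 and PRAC2, and 15, all of them noncoding, were tested, with a median log2 fold change of -0.11, 7 above 0 and 8 below. An unadjusted p under 0.05 was reached by 1 higher gene, HOTTIP, and 0 lower ones, and DESeq2 called 0, against 20.4% and 9.68% of all genes tested. HOXD-AS2 led by level at 4.31 ± 0.765 FPKM with 6-shogaol and 4.78 ± 0.588 FPKM in controls, and HOTAIRM1, which is induced in myeloid differentiation, followed at 3.71 ± 0.525 FPKM with 6-shogaol and 3.61 ± 0.894 FPKM in controls (log2 fold changes -0.17 and 0.02). HOTAIR, the HOXC transcript that binds Polycomb repressive complex 2, had 46, 28 and 17 counts with 6-shogaol and 38, 74 and 28 in controls (edgeR adjusted p = 0.645). Rows of the microRNA genes MIR10A, MIR10B, MIR196A1, MIR196A2, MIR196B and MIR615, which lie inside the clusters, held at most 4 counts in any library.

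Among TALE cofactors, chromatin regulators, retinoic acid genes and cluster neighbours, 6 genes were called by edgeR, beside 3.38% of all genes tested. For the further counts given per list, 20.4% of all genes reached an unadjusted p under 0.05 and DESeq2 called 9.68%. Of 9 tested TALE cofactors 1 fell and 0 rose. PBXIP1, which binds PBX proteins and keeps them from DNA, averaged 30.7 ± 4.17 FPKM with 6-shogaol and 43.3 ± 2.58 FPKM in controls (log2 fold change -0.52, SE 0.10, edgeR adjusted p = 0.0431). MEIS2, the highest of the DNA-binding ones, had a log2 fold change of -0.08, at 16.4 ± 0.443 FPKM with 6-shogaol and 17.1 ± 0.374 FPKM in controls. The median of this list was -0.08. An unadjusted p under 0.05 was reached by 0 higher and 2 lower members, near the share over all genes. DESeq2 called 0 higher and 2 lower, a larger share than over all genes.

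Of 28 Polycomb genes 1 rose and 1 fell, with a median of -0.01. An unadjusted p under 0.05 was reached by 6 higher and 5 lower members, and DESeq2 called 5 higher and 3 lower, in both cases a larger share than over all genes. CBX7, a chromodomain reader of Polycomb repressive complex 1, averaged 4.56 ± 0.192 FPKM with 6-shogaol and 3.08 ± 0.132 FPKM in controls (log2 fold change 0.54, SE 0.08, edgeR adjusted p = 0.0197). PHF19, which guides Polycomb repressive complex 2, averaged 12.9 ± 0.394 FPKM with 6-shogaol and 16.0 ± 0.156 FPKM in controls (-0.33, SE 0.06, edgeR adjusted p = 0.0374). CBX6, among the highest of the list, had a log2 fold change of -0.16, and EZH2, the methyltransferase, chosen after its value was seen, 0.14. None of 23 trithorax genes and H3K27 demethylases was called by edgeR (median 0.04). An unadjusted p under 0.05 was reached by 4 higher and 1 lower, and DESeq2 called 2 higher and 0 lower, both near the share over all genes. PSIP1 and MLLT1, the highest, had 0.14 and -0.10.

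Of 13 tested genes of retinoic acid signalling 1 rose, ALDH1A3, which makes retinoic acid, at 13.1 ± 0.389 FPKM with 6-shogaol and 9.38 ± 0.671 FPKM in controls (log2 fold change 0.47, SE 0.08, edgeR adjusted p = 0.0283). DHRS3 and STRA6, the highest, had 0.22 and 0.30, and the list had a median of 0.11. At an unadjusted p under 0.05 it held 4 higher and 2 lower genes, and by DESeq2 3 higher and 0 lower, in both cases a larger share than over all genes. Among 14 tested neighbours of the clusters CBX5 rose and CBX1 fell, both encoding HP1 proteins of heterochromatin (log2 fold changes 0.41 and -0.29, edgeR adjusted p = 0.0351 and 0.0492), and HNRNPA1 and HNRNPA3, the highest, had -0.22 and -0.02. In that list 4 higher and 2 lower genes had an unadjusted p under 0.05, and DESeq2 called 3 higher and 2 lower, in both cases again a larger share than over all genes. EVX1, EVX2 and SKAP1, which flank HOXA, HOXD and HOXB, averaged below 0.1 FPKM in both groups. Each of these 6 calls was lost with the replicate block and without any 1 library other than 6-shogaol replicate 1.

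**Figure D4:**
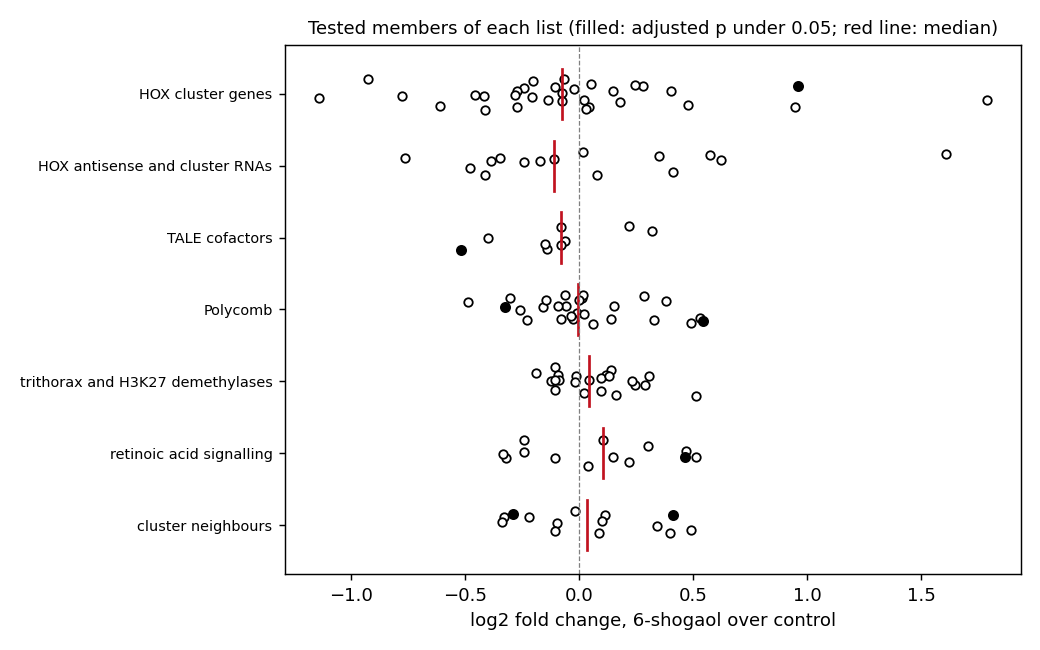
Log2 fold change, 6-shogaol over control, of tested members of the HOX clusters and of 6 related lists (1 point per gene reported, filled where the adjusted p is under 0.05, red line at the median of all tested members). Medians lie between -0.11 and 0.11, and single HOX genes range from -1.14 to 1.79.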

How the data were processed

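Bulk RNA sequencing of 6 libraries was analysed, grouped by the sample titles. The authors deposited counts per gene, and FPKM values per the file headers, with a copy of the counts that differed in 0 values. As low counts piled up at multiples of 4, whether a count stands for a single fragment is not known. FPKM divides the deposited count by gene length and library total: the implied length of members with at least 100 counts varied by at most 1.34% between libraries. The value 0.0001 stands in for most FPKM with a count of 0. Aligner, counter and strandedness are not given in the sources used here. Mouse builds (GRCm38, mm10) are named per the submitters' processing notes, yet identifiers are human. All 39 members overlap their GENCODE 29 gene on GRCh38, but only 11 have exactly its coordinates, and 16 have exactly their RefSeq GRCh38.p14 coordinates.

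The count test used edgeR 4.0.16 in R 4.3.3 (filterByExpr, TMM scaling, glmQLFit, glmQLFTest, Benjamini-Hochberg over 19279 genes, threshold 0.05). CPM is TMM-scaled, SE is the size of the log2 fold change over the root of the F statistic, and ± is SD. Settings tried beside it were DESeq2 1.42.0, upper-quartile and RLE scaling, 2 other filters, a replicate block, leaving out each library, and limma 3.58.1 on log2(FPKM + 1) or log2(FPKM + 0.1). Counts divided by 4 were added after the data were seen. The edgeR, DESeq2 and limma steps were tested on simulated counts, limma on their CPM and not on FPKM. The simulated counts lacked the steps of 4 seen in low counts, so the effect of these steps was not tested there. Exon sharing covers neighbours whose mean count reaches 10.

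Members and lists were chosen with earlier results of these data known. Given in full were called members and, per cluster, the 3 highest in FPKM and the 2 with the largest absolute log2 fold change, and, per other list, called members and the 2 highest. Values of 2 genes are not reported here, though counts and sums over lists include them. The tables held 0 columns of samples outside the series.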

Additional observations from a re-analysis of the deposited data

How the results depend on the processing

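RLE scaling, upper-quartile scaling, 1 CPM in 3 libraries, limma on log2(FPKM + 0.1) and counts divided by 4 kept the counts of calls over all genes and over HOX genes within 1.5 times of 651 and 1. Calls over all genes, HOX genes and the 6 related lists numbered 1866, 4 and 20 with DESeq2, 378, 1 and 2 with no filter, 760, 2 and 9 with limma on log2(FPKM + 1), and 268, 1 and 3 with that and no filter. With 1 CPM in 3 libraries the lists had 9. With each library left out they ran from 98 to 1012, from 0 to 2 and from 0 to 13. The replicate number as a block gave 3, 0 and 0, but nothing in the labels pairs the libraries, and same-numbered libraries deviated with correlations of -0.036 to 0.059. HOX genes detected in controls numbered 22 at a mean of 1 FPKM, 30 at 0.1 and 10 at 5.

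Of 484 values of 32 single HOX genes under the alternatives 448 kept direction and side of the threshold and 25 changed sign, 22 of them with a library left out. The log2 fold changes that changed sign ran, with a library left out, over these ranges: HNRNPA3 -0.056 to 0.046, HOTAIRM1 -0.18 to 0.15, HOXA2 -0.021 to 1.74, HOXA3 -0.037 to 0.44, HOXA4 -0.16 to 0.35, HOXA6 -0.047 to 0.14, HOXB2 -0.047 to 0.56, HOXC10 -0.17 to 0.0030, HOXC4 -0.18 to 0.0071, HOXC5 -0.17 to 0.063, HOXC8 -0.088 to 0.17, HOXD10 -0.012 to 0.071, HOXD13 -6.19 to 0.53. HOXC5 was 0.0043 with limma on log2(FPKM + 1), with or without a filter, and 0.013 on log2(FPKM + 0.1), and HNRNPA3 was 0.0038, 0.0038 and 0.0039 in these fits. The cause was not tested. The widest ranges were those of HOXD13 and HOXA2, which had at most 23 and 31 counts in a library.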
